A study of Oryza sativa with 6 samples.

Results

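The plasma membrane aquaporins of rice, named PIP1 and PIP2 for plasma membrane intrinsic protein, were followed in 3 kinds of root with and without salt. The genes were taken from a list of 10 gene IDs, 3 of them PIP1 and 7 PIP2, and each ID matched 1 of the 37938 loci in the deposited tables. The names follow the order of that list. The reference table lists all 10 names on the same chromosomes and in the same order along them, but does not pair them with these IDs. It also lists a gene named PIP2-8, which is not among the 10.

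Aquaporins are membrane channels that let water cross a cell membrane down its gradient. The plasma membrane subfamily carries much of the water that passes from cell to cell in roots. PIP2 proteins usually conduct water well on their own, whereas many PIP1 proteins reach the plasma membrane only when paired with a PIP2 partner. Salt lowers the water potential around the root, and the abundance, placement and gating of these channels are known to respond to it.

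The plants were of IR29, a cultivar that the series title calls sensitive to salinity, and all groups share that genotype. Messenger RNA came from nodal roots, the shoot-borne axes of the rice root system, and from their S-type and L-type lateral roots, either grown as controls or given 50 mM NaCl for 7 days. Each of these 6 groups was 1 library of 3839177 to 4249872 reads on loci, and no source used here says how many plants or roots it pooled. No group had a replicate, so no value here has a spread between plants. Root tissue is a mixture of cell types, and fewer cells of a type cannot be told apart from less RNA per cell.

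Marker lists written from general knowledge were summed in each library. The 8 photosynthesis loci held 30.9 to 97.0 scaled reads in the 3 control libraries and the salt S-type library, but 2270 in salt nodal and 943 in salt L-type roots. The 3 secondary cell wall loci, marking xylem and fibres, held 4108 and 3596 in the control and salt nodal libraries, against 114 and 198 in the S-type and L-type controls and 7.7 and 159 in the salted S-type and L-type roots. The 3 endodermis and exodermis loci summed to 17619 and 31493 in the control and salt S-type libraries and to between 2990 and 10106 elsewhere. The Casparian strip locus among them, Os04g0684300, did not follow this sum. It had 646 scaled reads in control S-type, 32.2 in salt S-type and 156 to 194 in the remaining libraries. Of the photosynthesis loci 1 was at 0 in each of the S-type and L-type controls and 2 in salt S-type roots, and 1 wall locus was at 0 in salt S-type roots. Of the endodermis and exodermis loci 1, Os02g0745100, is also on the list of further aquaporins. The 6 reference genes summed to 10781 to 37567 scaled reads. Of these Os02g0161900 alone held 4553 in control nodal and 33040 in salt L-type roots. Each of the other reference genes was lower in salt L-type than in control nodal roots. The part of these differences in the aquaporin values was not tested.

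In the build IRGSP-1.0, as the deposited files give it, the PIP1 genes lay on chromosomes 2 and 4. PIP1-1 (Os02g0666200) spans positions 27044340 to 27047381 of chromosome 2, and PIP1-3 (Os02g0823100) spans 35349672 to 35351221 of the same chromosome. PIP1-2 (Os04g0559700) spans 28046581 to 28048410 of chromosome 4.

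The PIP2 genes were spread over chromosomes 2, 4, 7 and 9, and 3 of them stood close together on chromosome 7. There PIP2-4 (Os07g0448100) spans 15358959 to 15360391, PIP2-5 (Os07g0448200) 15369151 to 15370242, and PIP2-1 (Os07g0448800) 15406441 to 15409748. No listed locus stands in the 8759 bases between PIP2-4 and PIP2-5, and 2 stand in the 36198 bases between PIP2-5 and PIP2-1. PIP2-2 (Os02g0629200) spans 25162875 to 25166544 of chromosome 2. On chromosome 4, PIP2-3 (Os04g0521100) spans 26099188 to 26101764 and PIP2-6 (Os04g0233400) spans 8948359 to 8949943. PIP2-7 (Os09g0541000) spans 21310131 to 21311479 of chromosome 9. The coordinates are those of whole loci, with exons and introns together.

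Of the 10 genes, 9 had at least 10 reads in at least 2 libraries and passed the filter on low values. PIP2-7, known in rice mainly from leaves, had 0 reads in all 6 libraries, where a count of 0 allows up to 3 reads, or 7.06e-05% to 7.81e-05% of a library. The remaining genes ranged from 2 reads, PIP2-5 in salt L-type roots, to 7036 reads, PIP1-1 in control nodal roots. The libraries carry no molecular identifiers, so reads copied by PCR are not separate molecules, and floors and intervals cover counting error only. Because the coding sequences of the family are alike and no source used here says how shared reads were handled, a value of a single gene can hold reads of a close copy. A further locus overlapped 8 of the genes, and no such locus held more than 6 reads in any library.

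Between genes, levels were compared per length, in FPKM (fragments scaled by transcript length and by library depth). In the order of the mean FPKM over the 6 libraries, PIP2-1 came first at 3781, ahead of PIP1-1 at 1015, PIP1-2 at 653, PIP2-2 at 423 and PIP1-3 at 259. PIP2-6 followed at 178, PIP2-3 at 143, PIP2-4 at 17.6 and PIP2-5 at 11.6. Each pair of neighbours in this order overlapped in their ranges over the 6 libraries. PIP1-3, for example, ran from 89.1 to 481 FPKM and PIP2-2 from 198 to 685. PIP2-4 and PIP2-5 also overlapped each other, from 4.52 to 53.5 and from 0.652 to 34.6 FPKM. PIP2-4 and PIP2-5 were below the levels of PIP1-1, PIP1-2, PIP1-3, PIP2-1, PIP2-2 and PIP2-3 in each of the 6 libraries.

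The first place of PIP2-1, a channel linked in rice to the hydraulic conductivity of roots, rests on how its length was counted. A library's reads, scaled to its depth and divided by FPKM, give the transcript length that the FPKM implies, and for PIP2-1 this was 54 to 188 bases, within a locus of 3308 bases. The remaining measured genes of the family had implied lengths between 556 and 1364 bases, and the median over the 12228 loci whose mean reached 50 scaled reads was 1505 bases. No locus other than PIP2-1 among these 12228 reached an implied length as short as 54 bases. The implied length of PIP2-1 also varied by 3.46 times between libraries, which 0.736% of these loci matched or passed. Among the other measured genes the lengths varied by 1.43 to 1.65 times, with depth taken as the library total. Not all of the 3.46 is therefore particular to PIP2-1. By reads alone PIP2-1 stood below PIP1-1 and PIP1-2 in control nodal roots, with 5228 reads against 7036 and 6648. Comparisons between libraries therefore use reads scaled by TMM factors (trimmed mean of M values, which correct for library size and composition), and FPKM is given where it differs.

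**Figure D1:**
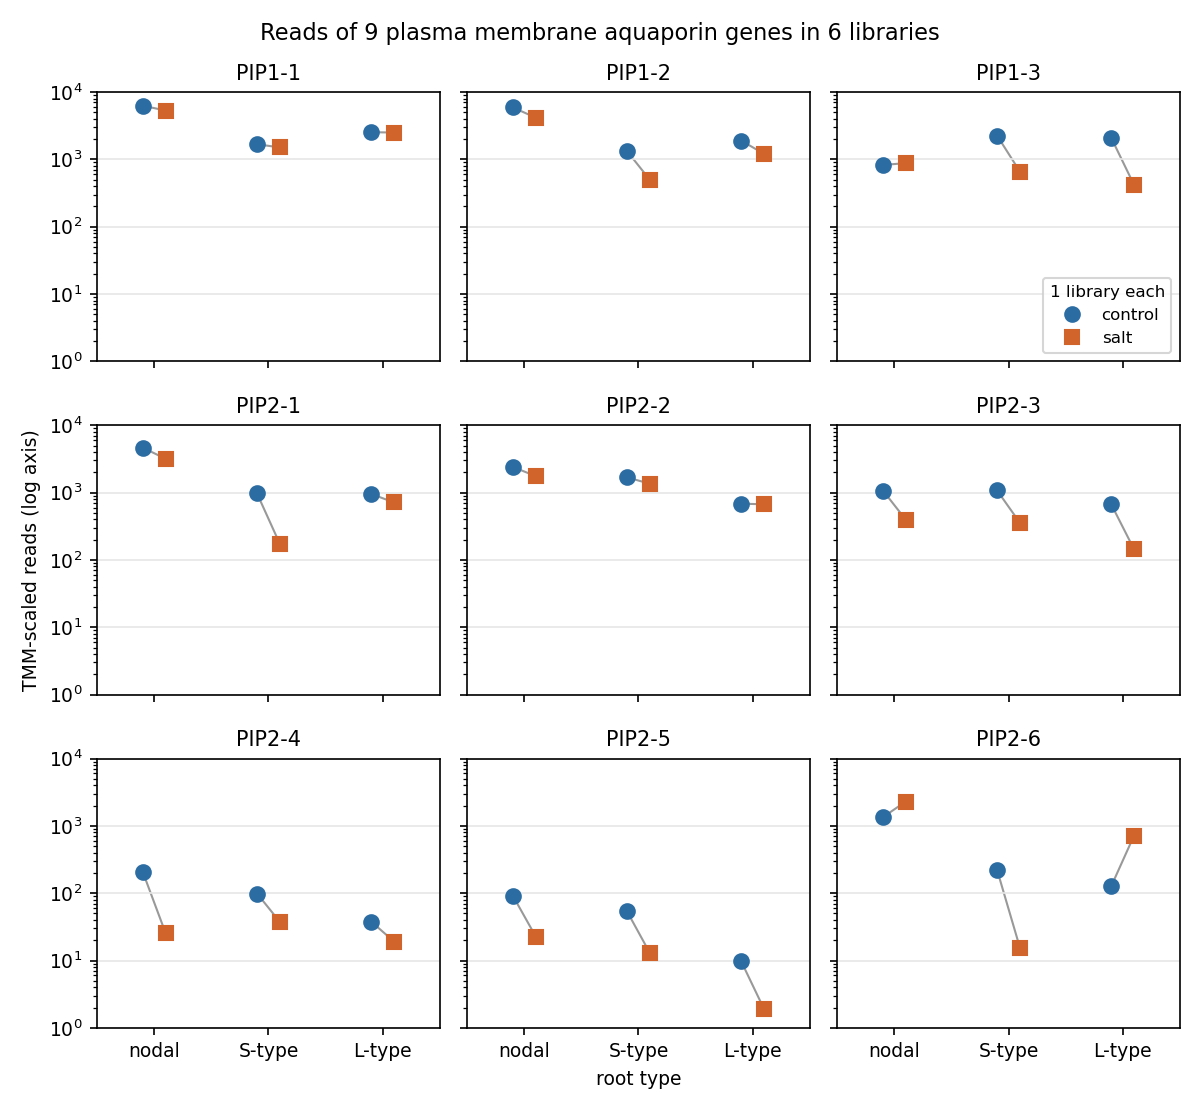
Scaled reads (TMM-scaled, log axis) of the 9 measured genes by root type, with circles for control and squares for salt and 1 library per point. PIP1-1, PIP1-2 and PIP2-1 were highest in the nodal libraries, PIP1-3 in the control lateral libraries, and the salt point of PIP2-6 lay below its control in S-type roots and above it in nodal and L-type roots.

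The first comparison asks how the lateral roots differ from the nodal roots they branch from. PIP1-1, PIP1-2, PIP2-1, PIP2-2 and PIP2-6 had fewer scaled reads in both S-type libraries than in both nodal libraries, 5 of 9 genes against 32.4% of the 19469 loci tested. The same 5 and PIP2-5 had fewer in both L-type than in both nodal libraries, 6 of 9 against 21.5% of loci. Only PIP2-2 and PIP2-5 were lower in both L-type than in both S-type libraries, 2 of 9 against 25.3% of loci.

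PIP1-1, listed in the reference table also as the water channel RWC1, had under control 6246 scaled reads in nodal roots, 1679 in S-type roots and 2529 in L-type roots, and under salt 5311, 1500 and 2500. Both nodal libraries were high, both S-type libraries low and both L-type libraries between them. In that order of root types, PIP1-2 had 5902, 1321 and 1897 scaled reads under control and 4151, 495 and 1205 under salt. PIP2-1 had 4641, 970 and 954 under control and 3172, 173 and 714 under salt. For all 3 genes the lowest nodal library was above the highest lateral library, and salt S-type roots were lowest.

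These 3 genes passed the test of S-type against nodal roots. It was limma on log2(scaled reads + 1), with root type and treatment as additive terms over the 6 libraries and a two-sided Benjamini-Hochberg threshold of 0.05 over all loci. The fit leaves 2 residual degrees of freedom, which hold the interaction of the terms. From these limma draws each variance towards that of the other loci. A small p means that a difference was large against this variance, with no bearing on plant-to-plant spread. The difference can still be uneven, as for PIP2-1 at -2.26 in control and -4.19 under salt. PIP1-1 was lower by 1.86 ± 0.38 (SE) on the log2 scale (log2 difference -1.86, limma adjusted p = 0.0277). PIP1-2 differed by -2.61 ± 0.39 (limma adjusted p = 0.0143) and PIP2-1 by -3.22 ± 0.57 (limma adjusted p = 0.02). No member was higher, and 3 of 9 were lower, against 11.3% of all loci higher and 7.74% lower. The median difference of the 9 genes was -0.77, and that of all loci was -0.04. Scaling by library totals moved the median of all loci to -0.45 and the split of called loci from 2199 higher and 1506 lower to 1707 and 2731. Without the control S-type library the PIP2-1 difference was -4.22, and without the salt S-type library -2.22. All 3 calls were lost without the control nodal library or without the salt nodal library, and that of PIP1-1 also without the control L-type (limma adjusted p = 0.0623) or salt L-type library (limma adjusted p = 0.054). In FPKM, PIP2-1 missed the threshold (limma adjusted p = 0.0548).

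PIP2-6, an aquaporin that can also carry arsenite when rice genes are expressed in other cells, had the widest range of the family. Under control it had 1344 scaled reads in nodal roots, 222 in S-type roots and 127 in L-type roots, and under salt 2299, 15.5 and 719. Both nodal libraries were above all 4 lateral ones, and the salt S-type library stood lowest with 12 reads. The difference of S-type from nodal roots was -4.86 ± 1.37, and it missed the threshold (limma adjusted p = 0.0597). It passed when scaled by library totals (limma adjusted p = 0.0391), by TMM factors from all loci (0.0498) or with a pseudocount of 5 (0.0414). Of the count tests, DESeq2 passed it (DESeq2 adjusted p = 0.00151) and edgeR did not (edgeR adjusted p = 0.13). Without the control nodal library the difference was -5.56, and without the salt nodal library -4.16. It was -7.55 without the control S-type library and -2.17 without the salt S-type library. The S-type arm is then 1 library, assumed to vary like the nodal and L-type ones, and the disagreement between its control and salt values no longer enters.

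PIP2-2 was highest in the nodal and lowest in the L-type libraries. Nodal, S-type and L-type roots had 2401, 1684 and 684 of its scaled reads under control and 1756, 1353 and 670 under salt. The libraries of each root type lay next to each other and those of different root types did not overlap, in the order nodal, S-type and L-type. The L-type difference from nodal was -1.60 ± 0.32 (limma adjusted p = 0.136). In FPKM the control S-type and L-type values were 467 and 322 and lay closer, with the L-type library 1.45-fold lower rather than 2.46-fold lower by reads.

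PIP1-3, known in rice as RWC3 and linked to drought responses, was the exception among the PIP1 genes. Its scaled reads under control were 822 in nodal roots, 2251 in S-type roots and 2083 in L-type roots, and under salt 880, 658 and 416. Both control lateral libraries were above the nodal ones and both salt lateral libraries below them. Over both treatments its difference from nodal roots was 0.52 ± 0.61 in S-type (limma adjusted p = 0.584) and 0.13 ± 0.61 in L-type roots (limma adjusted p = 0.94). Without the control nodal library these became -0.56 and -0.94, and without the control L-type library the L-type difference was -0.61.

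**Figure D2:**
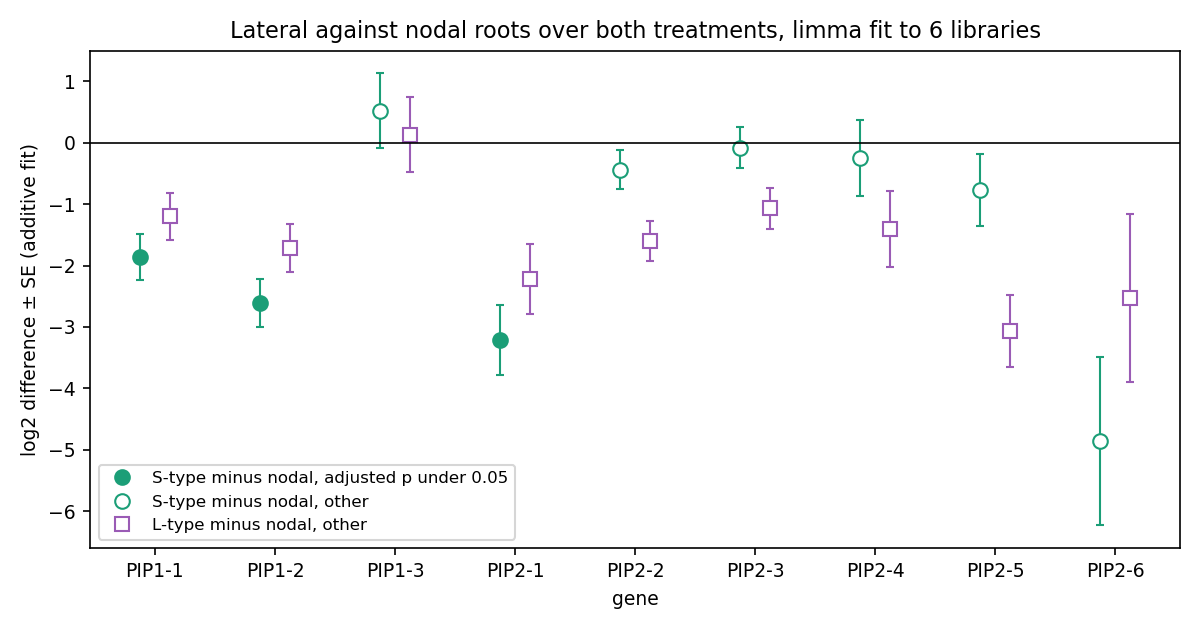
Log2 difference of S-type (circles) and L-type (squares) from nodal roots over both treatments for the 9 measured genes, from the additive limma fit to 6 libraries, with SE as bars and filled points for an adjusted p under 0.05. The filled points are PIP1-1, PIP1-2 and PIP2-1 at -1.86, -2.61 and -3.22, all in S-type roots.

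For L-type against nodal roots limma called 0 of 9 genes and 0% of loci as higher and 0% as lower. Without adjustment 6 of the genes, 1760 loci on the higher side and 1441 on the lower side had p under 0.05. The edgeR quasi-likelihood test called 0 of the genes and 0 loci in all. DESeq2 called 5 of the genes as lower, PIP1-1, PIP1-2, PIP2-1, PIP2-2 and PIP2-5, together with 556 loci higher and 430 lower in all. With limma, leaving out the control or the salt S-type library rests this comparison on the same nodal and L-type libraries. These fits are therefore not separate checks. Both give the same differences as the main fit and draw their spread from nodal and L-type roots alone. The median difference of the 9 genes was -1.60, and that of all loci 0.02.

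For L-type against S-type roots limma called 0 of the genes, against 0.0103% of loci higher and 0% lower. Unadjusted p was under 0.05 for 3 of the genes and for 1905 loci higher and 2351 lower. Both edgeR and DESeq2 also called 0 of the genes, where edgeR called 0 loci in all and DESeq2 559 loci higher and 1121 lower. Without the control S-type library, PIP2-1 and PIP2-6 were called higher in L-type roots, by 2.01 and 5.02 on the log2 scale, in a fit that called 2018 loci higher and 868 lower and had 1 S-type library left.

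Within a treatment, 1 library was set against 1, which allows no test. A gene was counted as higher or lower there by a rule of size: a 2-fold or larger ratio after adding 1 read, 50 or more scaled reads in whichever library was higher, and a 95% exact binomial interval of the ratio that leaves out 1. Under control, S-type against nodal roots had 1 gene higher, PIP1-3, and 5 lower, PIP1-1, PIP1-2, PIP2-1, PIP2-4 and PIP2-6, of the 9 that reached the minimum. The shares of loci were 27.3% higher and 19.6% lower. L-type against nodal roots had the same gene higher and 7 of 9 lower, all but PIP1-3 and PIP2-3, where 17.9% of loci were higher and 19.2% lower. L-type against S-type roots had 0 higher and 3 of 9 lower, PIP2-2, PIP2-4 and PIP2-5, where 11.3% of loci were higher and 23.2% lower. Scaled by library totals, that pair had 2 genes higher and 0 lower, and the share of called loci that were higher went from 32.7% to 64.6%.

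Under salt the lateral libraries stood differently. S-type against nodal roots had 0 higher and 4 of the 7 genes that reached the minimum lower, PIP1-1, PIP1-2, PIP2-1 and PIP2-6, against 24.8% of loci higher and 22.8% lower. PIP2-6 was 149-fold lower in that pair (95% interval of the fold 84.9 to 288) and PIP2-1 18.4-fold lower (15.4 to 22.0). L-type against nodal roots had all 7 genes that reached the minimum lower and 0 higher, against 10.5% of loci lower and 12% higher. L-type against S-type roots had 3 higher, PIP1-2, PIP2-1 and PIP2-6, and 2 lower, PIP2-2 and PIP2-3, against 15.6% and 18.7% of loci. In that pair PIP2-6 was 46.5-fold higher (26.4 to 90.3) in L-type roots.

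For PIP2-1 the control L-type library depended on the unit. By scaled reads it stood 4.87-fold below control nodal roots and at 0.984 of the control S-type level (0.897 to 1.08). By FPKM it was 1.70-fold below control nodal roots and 2.61 times the control S-type level. The implied length there was 54 bases, against 141 in control nodal and 101 in control S-type roots.

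The second comparison asks what 7 days of salt went with in each root type. Salt libraries were below control libraries in all 3 root types for 7 of the 9 genes, all but PIP1-3 and PIP2-6, against 20% of loci. Over the 3 root types limma called 0 genes, and 0% of loci were higher and 0% lower. Unadjusted p was under 0.05 for 6 of the genes, PIP1-2, PIP1-3, PIP2-1, PIP2-3, PIP2-4 and PIP2-5, and for 1168 loci higher and 1333 lower. The edgeR test called 0 loci, and DESeq2 called 1 of the genes, PIP2-3, among 184 loci higher and 203 lower.

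PIP2-3, a member known mainly from rice roots, had the smallest unadjusted p of the family for salt. Nodal, S-type and L-type roots had 1073, 1075 and 669 scaled reads of it under control and 396, 356 and 143 under salt. All 3 salt libraries were below all 3 control libraries. The limma difference was -1.75 ± 0.27 (limma adjusted p = 0.359). Without the control or the salt S-type library, the salt term rests on the same nodal and L-type libraries. Those fits are therefore not separate checks, and salt in S-type roots no longer enters them. In pairs the salt library was 2.71-fold lower in nodal roots (2.43 to 3.03), 3.02-fold in S-type (2.64 to 3.47) and 4.67-fold in L-type roots (3.91 to 5.60).

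PIP2-4 and PIP2-5, neighbours on chromosome 7 and the least abundant measured genes, were also lower under salt in each root type. In the same order of root types PIP2-4 had 205, 98.9 and 37.9 scaled reads under control and 25.3, 37.4 and 19.1 under salt. The lowest control value, from 43 reads in L-type roots, and the highest salt value, from 29 reads in S-type roots, differed by less than 1 scaled read, and in FPKM they were 8.91 and 9.22. The gap was widest in nodal roots, 8.10-fold (5.49 to 12.4). PIP2-5, which in rice has been placed in the root endodermis, had 91.4, 53.6 and 9.7 scaled reads under control and 22.7, 12.9 and 1.9 under salt. Its salt libraries were 4.03-fold lower in nodal roots (2.60 to 6.45) and 4.16-fold lower in S-type roots (2.07 to 9.25). In L-type roots neither gene reached 50 scaled reads.

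PIP1-1 and PIP2-2 differed least between salt and control. The salt library of PIP1-1 was 1.18-fold lower in nodal roots (1.14 to 1.22), 1.12-fold lower in S-type roots (1.03 to 1.21) and 1.01-fold lower in L-type ones (0.959 to 1.07). For PIP2-2 the folds were 1.37 in nodal (1.29 to 1.45), 1.25 in S-type (1.15 to 1.35) and 1.02 in L-type roots (0.921 to 1.13). Counting error alone covers the L-type difference of both genes. By FPKM the L-type salt libraries were 1.26-fold lower for PIP1-1 and 1.62-fold lower for PIP2-2.

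PIP1-2, PIP2-1 and PIP1-3 differed from control by unequal folds in the root types. PIP1-2 was 2.67-fold lower in S-type roots (2.37 to 3.005), 1.57-fold in L-type (1.47 to 1.69) and 1.42-fold in nodal roots (1.37 to 1.48). PIP2-1 was 5.61-fold lower in S-type roots (4.67 to 6.79), and 1.46-fold (1.40 to 1.53) and 1.34-fold lower (1.22 to 1.47) in nodal and L-type roots. By FPKM the L-type difference of PIP2-1 was 2.83-fold. PIP1-3 was 3.42-fold lower in S-type (3.10 to 3.78) and 5.01-fold lower in L-type roots (4.52 to 5.56), while in nodal roots the salt library was at 1.07 of control (0.979 to 1.17). With 1 library per group, the difference of these changes between root types has no test.

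PIP2-6 stood apart from the rest of the family in direction. Salt S-type roots were 14.3-fold below control S-type roots (8.01 to 28.2), whereas salt L-type roots were 5.66 times control L-type roots (4.73 to 6.81) and salt nodal roots 1.71 times control nodal roots (1.60 to 1.82). On the log2 scale the change was -3.76 in S-type, 2.49 in L-type and 0.77 in nodal roots. FPKM gave -3.45, 2.46 and 0.68. The salt nodal and salt L-type libraries, where PIP2-6 was higher than in control, were also the libraries with 2270 and 943 scaled reads on the 8 photosynthesis loci, and the part of this in the result was not tested. The shallowest value behind these folds is 12 reads, in salt S-type roots.

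**Figure D3:**
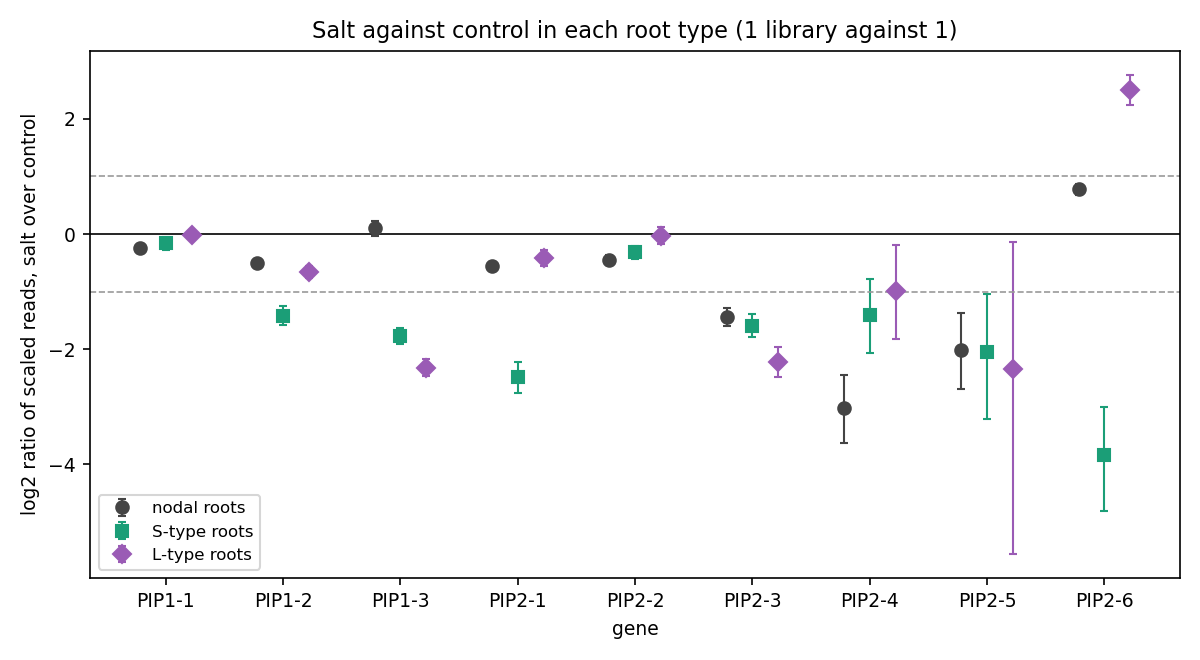
Log2 ratio of scaled reads, salt over control (no pseudocount), for each measured gene in nodal (circles), S-type (squares) and L-type roots (diamonds), with 95% exact binomial intervals for counting error only and dashed lines at 2-fold. PIP2-3, PIP2-4 and PIP2-5 lie below 0 in all root types, PIP1-1 and PIP2-2 lie near 0, and PIP2-6 is 14.3-fold lower in S-type but 5.66 times control in L-type roots.

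By the rule of size, salt nodal roots had 0 genes higher and 3 of 9 lower, PIP2-3, PIP2-4 and PIP2-5, against 13.1% of loci higher and 11.9% lower. In S-type roots 7 of 9 were lower, all but PIP1-1 and PIP2-2, and 0 higher, against 12.7% and 5.03% of loci. In L-type roots 1 of the 7 that reached the minimum was higher, PIP2-6, and 2 were lower, PIP1-3 and PIP2-3, against 16.8% and 11.3% of loci. The median log2 change of the 9 genes was -0.51 for nodal, -1.59 for S-type and -0.65 for L-type roots, and that of all loci was 0.00, -0.07 and 0.05. These comparisons use separate libraries, so the 3 medians share no sample.

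Summed over the family, the nodal libraries held the most reads and the salt S-type library the fewest. Nodal, S-type and L-type roots held 22727, 9353 and 8991 scaled reads of the 10 genes together under control and 18013, 4599 and 6389 under salt. As a share of all reads this was 0.602% in control nodal (95% exact binomial interval 0.595% to 0.610%), 0.192% in control S-type and 0.262% in control L-type roots, and 0.4999%, 0.0916% and 0.174% under salt. Salt libraries held 1.26-fold fewer family reads in nodal (1.24 to 1.28), 2.03-fold fewer in S-type (1.95 to 2.12) and 1.41-fold fewer in L-type roots (1.36 to 1.45). The control S-type and L-type sums differed by -0.06 on the log2 scale, and this sign turned with the scaling, to 0.45 with library totals, 0.04 with TMM factors from all loci and 0.89 in FPKM.

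**Figure D4:**
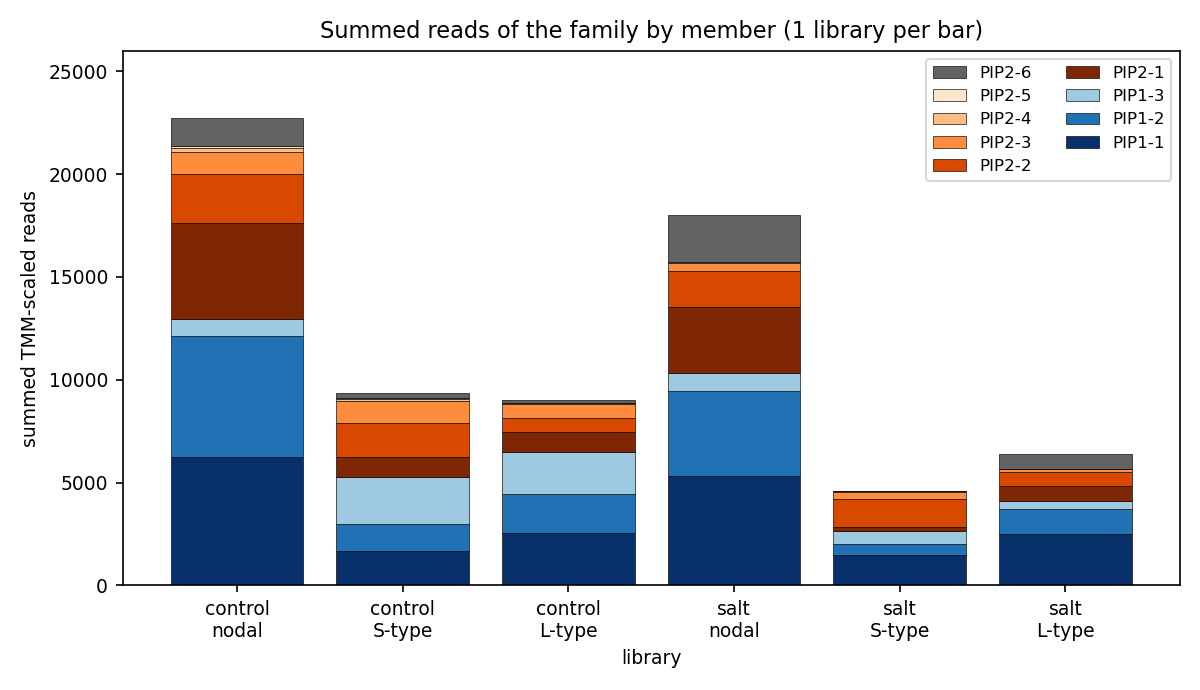
Summed TMM-scaled reads of the family in each library, with 1 library per bar and colours for the genes (blue for PIP1, brown to orange for PIP2-1 to PIP2-5, grey for PIP2-6). The nodal bars reach 22727 and 18013 and the lateral bars 4599 to 9353, with the salt S-type bar lowest.

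The balance of the subfamilies was nearly the same in 4 libraries and different in L-type roots. PIP1 genes held 57.1% of family reads in control nodal (56.5% to 57.7%), 56.1% in control S-type (55.0% to 57.2%), 57.4% in salt nodal (56.7% to 58.1%) and 57.7% in salt S-type roots (56.0% to 59.3%). They held 72.4% in control L-type (71.5% to 73.3%) and 64.5% in salt L-type roots (63.4% to 65.7%). Within PIP1 the make-up varied between libraries with the same total, since PIP1-3 gave 3.62% of family reads in control nodal and 24.1% in control S-type roots. In FPKM, where PIP2-1 weighs most, PIP1 genes held 24.7% to 45.8%, with the lowest share in control L-type and the highest in salt S-type roots.

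Across the 6 libraries, some genes of the family had similar profiles of log2(scaled reads + 1). PIP1-2 and PIP2-1 had a Pearson correlation of 0.99, PIP1-1 and PIP1-2 of 0.94, and PIP1-1 and PIP2-1 of 0.91. PIP2-6 had 0.89 with PIP2-1, 0.85 with PIP1-2 and 0.84 with PIP1-1, but 0.01 with PIP2-3 and -0.16 with PIP1-3. PIP2-3 and PIP2-4 had 0.86, and PIP1-3 and PIP2-3 had 0.76. PIP1-3 and PIP1-1 had -0.19. These are descriptions over 6 libraries that share root types and treatments, and no p is given. Among the 8703 loci outside the family whose mean reached 100 scaled reads, Os03g0297400 (chromosome 3, 10400746 to 10404269) and Os01g0375200 (chromosome 1, 15479967 to 15493392) had the profiles most like the mean profile of the 8 genes whose own mean reached 50, each with a correlation of 0.997. That mean profile correlated at 0.969 with PIP2-1, 0.95 with PIP1-2 and 0.274 with PIP1-3. Each of these genes is part of that mean, so its own values enter its correlation. These values are therefore not comparable with those of the loci outside the family, which were picked as the highest.

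Aquaporins outside the PIP list were taken from a list of 17 IDs, of which 11 passed the filter. Its 3 loci with the most mean FPKM were Os03g0146100 (1743), Os02g0745100 (1223) and Os06g0336200 (895), and the mean FPKM of Os03g0146100 and Os02g0745100 was above the 1015 of PIP1-1. For S-type against nodal roots limma called 1 of the 11 higher and 4 lower, with a median difference of -1.40, against 11.3% of loci higher and 7.74% lower. It called 0 for salt, for L-type against nodal and for L-type against S-type roots. By the rule of size 6 of the 11 were lower and 0 higher in salt S-type against control S-type roots, with a median log2 change of -2.51, where 12.7% of loci were lower and 5.03% higher. In nodal roots 2 were lower and 1 higher, with 11.9% and 13.1% of loci, and L-type roots had the same counts, with 11.3% and 16.8% of loci. From control to salt, Os06g0336200 went from 327 to 38.7 scaled reads in S-type roots, from 6760 to 8706 in nodal roots and from 2197 to 3496 in L-type roots. Os03g0146100 had 2021 and 46.4 in S-type, 12068 and 12120 in nodal and 1594 and 2587 in L-type roots. Os02g0745100 had 7942 and 13340 in S-type roots, 2119 and 4133 in nodal roots and 1482 and 7237 in L-type roots.

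The authors' deposited table, made by Cuffdiff per the file headers, compared the 6 libraries in 15 pairs. In the authors' deposited table, 0 of the 135 tested results for these genes were marked significant, and 0.411% of 280381 tested results over all loci were. The smallest q-value for the family in the authors' deposited table was 0.256, with a p-value of 0.0034, for PIP2-6 between control L-type and salt nodal roots.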

How the data were processed

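Messenger RNA of 6 root libraries, 1 per group, was sequenced with strand kept and inserts of 200 bp, per the labels' protocols. The submitters' processing notes name Cuffdiff 2.2.1, Cufflinks 2.2.1, TopHat2 2.0.11, Bowtie and Trimmomatic 0.32, and the build IRGSP-1.0. For each locus and library the authors deposited a signal, equal to reads over a library's size factor. The authors deposited FPKM with p-values and q-values for pairs of libraries in a further table.

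Division of the signal by its smallest step gave whole reads, within 0.01, for 99.897% to 99.977% of values above 0. The 828 loci that name no gene took up to 0.58% of the reads. Reads were scaled with TMM factors, computed on the 19469 loci that reached 10 reads in 2 or more libraries. The main test was limma-trend (limma 3.58.1, R 4.3.3), applied to log2(scaled reads + 1), with adjusted p from the Benjamini-Hochberg method over those loci. On that scale the change of a locus with few reads is understated. The edgeR 4.0.16 and DESeq2 1.42.0 tests on the recovered reads were alternatives. Binomial intervals (95%, Clopper-Pearson) used scipy 1.17.1.

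The genes and lists were chosen with earlier results of these data known, and list membership comes from general knowledge. All 10 genes are named. From the list of further aquaporins the 3 with the most FPKM are named, and by likeness of profile 2 loci. Gene names were compared with the reference table of assembly ASM3414082v1, in which 1 of the file's IDs was found. No sequence is shown, and no genome was used here.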

Additional observations from a re-analysis of the deposited data

Results flagged for a closer look

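PIP2-6 went opposite ways under salt in the lateral root types. Its log2 change was -3.76 in S-type roots and 2.49 in L-type roots, from 1 library against 1 each, and the difference between these changes was not tested.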

How the results depend on the processing

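No pairing by replicate number was possible because each group holds 1 library, and the additive fit already compares salt with control within root types. The 22 counts of genes were recomputed under 230 alternatives in all, and 205 of these stayed within 1.5 times the reported count. Several of the reported counts were 0 and had little room to move, so this share is no measure of how stable the calls are. When libraries were left out 1 at a time, the number of genes that limma called changed in each comparison, and so did the number of loci called. Each such fit leaves 1 library in a group. Without either S-type library, salt and L-type against nodal roots rest on the same nodal and L-type libraries. With all 6 libraries DESeq2 called 1 gene for salt, among 184 loci higher and 203 lower. For L-type against nodal roots it called 5, among 556 loci higher and 430 lower.

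With a 4-fold in place of a 2-fold rule, 1 gene was lower with salt in nodal roots, where 551 loci were higher and 231 lower. In S-type roots 2 genes were lower, where 53 loci were higher and 742 lower. In controls the 4-fold rule left 0 genes higher and 3 lower for S-type against nodal roots (1921 loci higher and 920 lower). It left 0 higher and 4 lower for L-type against nodal (548 and 942 loci), and 1 lower for L-type against S-type roots (297 and 1446 loci). Under salt it left 1 lower for L-type against nodal (580 loci higher and 377 lower). For L-type against S-type roots it left 0 lower (1047 loci higher and 795 lower). These smaller counts follow from the stricter rule.

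L-type against S-type roots depended most on scaling. Library totals gave 2 genes higher and 0 lower under control and 0 lower under salt. FPKM gave 1 higher under control and 1 lower under salt, TMM factors from all loci 1 lower under salt, and a minimum of 200 scaled reads 1 lower under control. The summed family ratio under control, -0.06, reversed to 0.45 (library totals), 0.04 (TMM factors from all loci, chosen after seeing the data) and 0.89 (FPKM). Library totals moved the median of all loci in that pair from -0.07 to 0.41. The cause was not tested. Depth limits PIP2-4, PIP2-5 and PIP2-6, with as few as 20, 2 and 12 reads in a library.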
